A study of Mus musculus with 6 samples.

Results

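The Ly6 surface protein cluster is taken here as 6 genes of mouse chromosome 15, Ly6a, Ly6c1, Ly6c2, Ly6d, Ly6e and Ly6k, out of 39179 gene entries counted in each library. They were found by matching the Ensembl identifiers of the count files to gene symbols of the GRCm38 annotation (GENCODE M21), and all 6 had an entry. The genes were picked because several of them differed between the 2 groups of this study, so the values in that contrast are given as a description and carry no test. The series holds 6 RNA-seq libraries of mouse regulatory T cells (Tregs), CD4+ T cells that restrain immune responses. Of these, 3 libraries came from cells cultured with DEL-1-Fc, an Fc fusion of the secreted integrin-binding protein DEL-1, and 3 from cells cultured with the Fc control. Both groups began as naive CD4+ spleen cells of wild type C57BL/6 mice aged 6 weeks. Both were turned into Tregs in vitro over 3 days with coated anti-CD3, anti-CD28, TGFβ1 and IL-2. The labels do not say whether the 3 libraries of a group came from separate cultures or mice, so the spread between them may be technical.

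Ly6 proteins are small surface proteins with a compact domain held together by disulfide bonds, and most are tethered to the outer membrane leaflet by a glycosylphosphatidylinositol (GPI) anchor. In mice the chromosome 15 genes arose by repeated duplication, and several of them are used as markers of blood cell types. Ly6a (also called Sca-1) marks blood stem cells and subsets of T cells, while the products of Ly6c1 and Ly6c2 together make up the Ly-6C antigen of monocytes and memory T cells. Ly6a, the Ly-6C genes and Ly6e are known to be induced by interferons in many mouse cells.

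The members lie within 350 kb, between bases 74762056 and 75111970 of chromosome 15 in GRCm38. Ly6e (ENSMUSG00000022587) lies on the plus strand at chr15:74955051-74959905. The others lie on the minus strand, Ly6d (ENSMUSG00000034634) at chr15:74762056-74763620, Ly6k (ENSMUSG00000044678) at chr15:74796874-74799986, Ly6a (ENSMUSG00000075602) at chr15:74994877-74998031, Ly6c1 (ENSMUSG00000079018) at chr15:75044018-75048830 and Ly6c2 (ENSMUSG00000022584) at chr15:75108158-75111970. All 6 are annotated as protein-coding. Ly6k overlaps the predicted gene Gm17189 on the opposite strand, and the strand setting of the counting is not given. Shared sequence was measured over words of 31 bases, with matches counted on the same strand only. The sequence that Ly6k has in common with Gm17189, which runs on the opposite strand, was therefore not measured. Gm17189 had 1 to 3 counts per library, but reads from the overlap could belong to either gene.

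The coding sequences of Ly6c1 and Ly6c2 are shown because they decide how far the counts of the pair can be separated. They were taken from the GENCODE M21 transcripts and have 396 bases each, of which the first 300 are printed. Capitals mark the bases at which the 2 genes differ, 7 of the 9 such bases of the whole coding sequence.
Ly6c1: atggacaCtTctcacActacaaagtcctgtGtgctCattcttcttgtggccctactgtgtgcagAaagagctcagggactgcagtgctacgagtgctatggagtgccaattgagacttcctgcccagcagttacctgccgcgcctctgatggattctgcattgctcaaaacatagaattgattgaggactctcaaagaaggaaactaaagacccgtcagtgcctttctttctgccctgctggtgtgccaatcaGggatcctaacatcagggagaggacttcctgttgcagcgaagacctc
Ly6c2: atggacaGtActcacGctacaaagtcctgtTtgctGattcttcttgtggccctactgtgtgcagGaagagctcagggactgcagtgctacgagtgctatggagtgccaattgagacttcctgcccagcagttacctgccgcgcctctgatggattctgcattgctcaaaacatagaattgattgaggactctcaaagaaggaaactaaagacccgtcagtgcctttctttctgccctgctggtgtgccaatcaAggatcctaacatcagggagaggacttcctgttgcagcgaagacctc

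The pair was identical at 97.7% of aligned bases, and its longest stretch without a difference ran over 188 bases, so a short read from that stretch would fit both genes. Of the words of the whole Ly6c1 transcript, 48.0% also occurred in Ly6c2, and 57.1% occurred in some other gene. Of the Ly6c2 words, 49.2% also occurred in Ly6c1, and 53.8% occurred in some other gene. Counts of Ly6c1 and Ly6c2 are therefore uncertain one by one, and their sum is given as well.

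Ly6a is the nearest relative of this pair among the members, and the first 300 of its 405 coding bases are shown for that reason. Capitals mark the bases that differ from Ly6c1 or have no counterpart in it, 68 of the 73 such bases of the whole coding sequence.
Ly6a: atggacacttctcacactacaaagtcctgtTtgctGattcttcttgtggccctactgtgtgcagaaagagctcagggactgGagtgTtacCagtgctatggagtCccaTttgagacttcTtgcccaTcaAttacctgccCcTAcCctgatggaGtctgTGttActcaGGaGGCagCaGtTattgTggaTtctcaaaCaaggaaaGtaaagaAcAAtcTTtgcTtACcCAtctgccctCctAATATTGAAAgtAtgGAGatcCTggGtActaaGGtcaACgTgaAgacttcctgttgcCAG

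Ly6a was identical to Ly6c1 at 82.0% of alignment columns, and the longest identical stretch of the 2 coding sequences had 48 bases. The stretch next to the start codon is nearly free of capitals, and they are dense in the middle of the coding sequence. Of the Ly6a transcript words, 22.1% occurred in another gene, with 10.6% in Ly6c1, 7.2% in its neighbour Ly6i, 5.9% in I830127L07Rik and 5.1% in Ly6c2. I830127L07Rik also held 3.2% of the Ly6c1 words and 5.2% of the Ly6c2 words. Ly6e shared 0.8% of its words, and Ly6d and Ly6k shared none on the same strand.

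**Figure D1:**
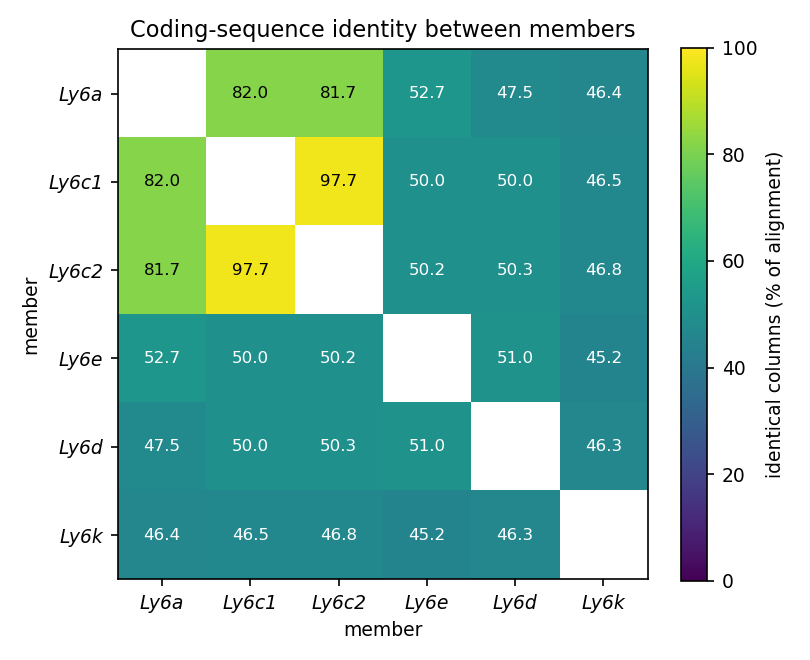
Identity of the coding sequences between each pair of members, as the percentage of identical columns in a global alignment; both axes list the members. Ly6c1 and Ly6c2 stand at 97.7%, Ly6a stands at 82.0% and 81.7% with them, and every pair that includes Ly6d, Ly6e or Ly6k lies between 45.2% and 52.7%.

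Promoters from RefSeq (GRCm38.p6, 250 bases before to 50 bases after the start of a gene) were at hand for 2 of the 6 members, Ly6c1 and Ly6c2, and not for Ly6a, Ly6d, Ly6e or Ly6k. They are shown because these copies were both lower with DEL-1-Fc. The table holds 2 windows for each of these genes, and the one whose start site is nearest to the annotated start of the gene is printed. Capitals in the Ly6c1 promoter (chr15:75048788-75049087, minus strand) mark the letters TATAAA, and in the Ly6c2 promoter (chr15:75111922-75112221, minus strand) the letters ACCACA, which read TGTGGT on the other strand.
Ly6c1 promoter: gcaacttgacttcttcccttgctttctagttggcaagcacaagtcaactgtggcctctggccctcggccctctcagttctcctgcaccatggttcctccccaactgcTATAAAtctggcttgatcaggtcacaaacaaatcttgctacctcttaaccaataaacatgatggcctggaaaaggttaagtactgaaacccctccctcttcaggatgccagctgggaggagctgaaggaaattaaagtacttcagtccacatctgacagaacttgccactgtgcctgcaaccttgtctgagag
Ly6c2 promoter: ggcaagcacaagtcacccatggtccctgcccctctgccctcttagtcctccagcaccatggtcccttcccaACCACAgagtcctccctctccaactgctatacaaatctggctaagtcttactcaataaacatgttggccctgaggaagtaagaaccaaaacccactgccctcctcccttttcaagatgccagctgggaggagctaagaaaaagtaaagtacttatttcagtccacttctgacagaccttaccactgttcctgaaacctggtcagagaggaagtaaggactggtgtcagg

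The 2 promoter windows were identical at 208 of 334 alignment columns (62.3%), with gaps counted as differences. They do not cover matching stretches, since the Ly6c2 window opens with letters found further inside the Ly6c1 window. The percentage therefore depends on where the windows were placed. It cannot be set against the 97.7% of the coding sequences, which aligned without gaps. Each window was searched on both strands for 4 short motifs, and the same search was run on 32851 mouse promoters of equal length. The TATA letters TATAAA occurred in the Ly6c1 window, at position -143 from the start site, but not in the other Ly6c1 window, and in 13.6% of all promoters. The Runx letters TGTGGT occurred in the Ly6c2 window, at position -179, and in 16.8% of all promoters. The other Ly6c2 window overlaps this one and holds the same site, at position -213 from its own start site. Runx factors were searched because the title of the series names Runx-1. The letters of the interferon-gamma-activated site, TTCNNNGAA, present in 8.3% of promoters, and the core of the interferon-stimulated response element (GAAA, any 2 bases, GAAA), present in 3.4%, are not in any of the 4 windows. The matches shown do not overlap one another.

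Levels are CPM, the reads of a gene scaled to a fixed total of reads per library, with library sizes scaled by the TMM method. The libraries held 33364166 to 58075983 counted reads in the DEL-1-Fc group and 55318383 to 61967687 in the Fc group. The defining transcripts of the labelled cell type were present, with 10 CD4 T cell and Treg markers summing to 5590 to 5899 CPM with DEL-1-Fc and 5232 to 5638 CPM with Fc, of which Il2ra, the high-affinity IL-2 receptor chain, gave the most (2553 ± 254 CPM with DEL-1-Fc and 2463 ± 136 CPM with Fc). Within that list Foxp3, the factor that defines Tregs, rose by 0.54 on the log2 scale (SE 0.116, edgeR adjusted p 0.0166). Its level was 523.3 ± 59.7 CPM with DEL-1-Fc and 359.5 ± 50.1 CPM with Fc. Rises and falls printed without a unit are log2 fold changes of DEL-1-Fc over Fc, here and below. Ctla4, an inhibitory receptor of Tregs, fell by 0.30 (SE 0.0754, edgeR adjusted p 0.0310), with 424.5 ± 35 CPM with DEL-1-Fc and 524.1 ± 13.7 CPM with Fc. The Foxp3 call was lost without DEL-1-Fc replicate 1, Fc replicate 1 or Fc replicate 3 (adjusted p 0.0928, 0.0873 and 0.0753), and Foxp3 overlaps other genes on both strands. The Ctla4 call was lost without DEL-1-Fc replicate 2 or any 1 of the Fc libraries (adjusted p 0.0613 to 0.135), and with library sizes alone (0.0616). In a principal component analysis, the first component (44% of the variance) separated the 2 groups. Along the next (23.3%), the shallowest library, DEL-1-Fc replicate 1, lay on the other side of zero to the remaining 2 libraries of its group. Across the 14928 genes tested with edgeR's quasi-likelihood test, 956 genes (6.4%) were called higher and 928 (6.22%) lower with DEL-1-Fc at an adjusted p under 0.05. The total of 1884 calls became 3003 when DEL-1-Fc replicate 1 was left out, and 901, 970 and 963 when Fc replicate 1, 2 or 3 was left out.

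In these cells Ly6a, Ly6c1 and Ly6c2 were lower with DEL-1-Fc in every library, by about 1.93- to 2.80-fold, while the abundant member Ly6e stood at nearly the same level in both groups. The low member Ly6k was higher with DEL-1-Fc, and Ly6d was barely counted. All 6 passed the filter on low counts. All 3 DEL-1-Fc libraries lay below all 3 Fc libraries for 3 members, as they did for 17.5% of the genes tested, and all 3 lay above for 1 member, as for 17.3% of the genes tested. The groups thus did not overlap for 4 of 6 members, beside 34.8% of the genes tested. Nothing is read from those counts, since the members were picked on this contrast. With DEL-1-Fc replicate 1 left out, the log2 fold changes were -1.43 for Ly6a, -1.55 for Ly6c1, -1.14 for Ly6c2 and -0.0035 for Ly6e.

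Ly6a, the Sca-1 antigen, had 123.5, 112.8 and 169.7 CPM in DEL-1-Fc replicates 1 to 3, against 364.8, 381.1 and 392.9 CPM in Fc replicates 1 to 3. The groups lie far apart, and DEL-1-Fc replicate 3 is the highest of its group. The mean was 135.3 ± 30.2 CPM with DEL-1-Fc and 379.6 ± 14.1 CPM with Fc (SD, n = 3 each). The log2 fold change was -1.49 (SE 0.141), a 2.80-fold lower level with DEL-1-Fc. The highest library exceeded the lowest by 1.50-fold within the DEL-1-Fc group and by 1.08-fold within the Fc group. Ordered by mean CPM over all genes, Ly6a ranked 1789 in DEL-1-Fc and 447 in Fc libraries. Of the 14928 genes tested, 96 (0.643%) had a log2 fold change as low as that of Ly6a or lower, Ly6a among them. In RNA from whole cultures, fewer cells that carry a transcript and less of it per cell cannot be told apart.

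Ly6c1 encodes a Ly-6C antigen and was a low transcript here. It had 131, 134 and 216 counts in DEL-1-Fc libraries, against 489, 580 and 462 counts in Fc libraries. That is 3.99, 2.37 and 3.64 CPM with DEL-1-Fc, against 8.62, 9.47 and 8.41 CPM with Fc. The 3 DEL-1-Fc values lie below the 3 Fc values, with replicate 2 the lowest. The mean was 3.34 ± 0.853 CPM with DEL-1-Fc and 8.83 ± 0.558 CPM with Fc (SD, n = 3 each), a log2 fold change of -1.41 (SE 0.183) or a 2.66-fold lower level.

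Ly6c2, its close copy, had 127, 139 and 172 counts in DEL-1-Fc libraries, against 298, 377 and 345 counts in Fc libraries. In CPM it had 3.87, 2.46 and 2.90 with DEL-1-Fc, against 5.25, 6.15 and 6.28 with Fc. The groups again do not overlap, and they lie closer together than for Ly6c1. The mean was 3.08 ± 0.722 CPM with DEL-1-Fc and 5.90 ± 0.562 CPM with Fc (SD, n = 3 each), a log2 fold change of -0.95 (SE 0.175) or a 1.93-fold lower level.

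Summed over both copies, the level does not depend on how reads common to the 2 were divided, provided that such reads were counted. It was 7.86, 4.83 and 6.54 CPM in DEL-1-Fc libraries, against 13.9, 15.6 and 14.7 CPM in Fc libraries. All DEL-1-Fc values lie below all Fc values. The log2 fold change of the sum was -1.20 (SE 0.162), between those of the single copies. The ratio of Ly6c1 to Ly6c2 counts was 1.03, 0.964 and 1.26 in DEL-1-Fc libraries, against 1.64, 1.54 and 1.34 in Fc libraries. The ratio was thus lower in each DEL-1-Fc library than in each Fc library, with 1.26 and 1.34 the nearest values. On the log2 scale it averaged 0.11 ± 0.20 in DEL-1-Fc and 0.59 ± 0.15 in Fc libraries (SD, n = 3 each), a difference of -0.48. The treatment of reads that fit both copies is not given in the sources used here, and its part in this ratio was not tested. Ly6a, a far more abundant transcript here, held 12.0% of the Ly6c1 words and 5.9% of the Ly6c2 words. The part of Ly6a reads in the counts of the pair, their sum and their ratio was not tested.

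Ly6e, an interferon-inducible surface protein of many tissues and of developing T cells in the mouse, was the most abundant member in CPM. It had 762.1, 671.8 and 677.3 CPM in DEL-1-Fc libraries, against 678.4, 707.8 and 643.0 CPM in Fc libraries. The groups overlap, and the highest value is that of DEL-1-Fc replicate 1. The mean was 703.7 ± 50.6 CPM with DEL-1-Fc and 676.4 ± 32.4 CPM with Fc (SD, n = 3 each), with a log2 fold change of 0.06 (SE 0.0766). By mean CPM it ranked 141 among all genes in DEL-1-Fc and 160 in Fc libraries.

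Ly6k, known in the mouse for its role in sperm, had 49, 73 and 69 counts in DEL-1-Fc libraries, against 62, 57 and 44 counts in Fc libraries. In CPM it had 1.49, 1.29 and 1.16 with DEL-1-Fc, against 1.09, 0.930 and 0.801 with Fc. The DEL-1-Fc values lie above the Fc values, by a small margin between 1.16 and 1.09 CPM. The mean was 1.32 ± 0.166 CPM with DEL-1-Fc and 0.941 ± 0.146 CPM with Fc (SD, n = 3 each), with a log2 fold change of 0.47 (SE 0.190).

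Ly6d, a marker of early B-lineage cells and of skin and other lining cells in the mouse, had 9, 25 and 17 counts in DEL-1-Fc libraries, against 18, 11 and 19 counts in Fc libraries. That is 0.274, 0.442 and 0.287 CPM with DEL-1-Fc, against 0.317, 0.180 and 0.346 CPM with Fc, and the groups overlap. Its log2 fold change was 0.28 (SE 0.355), which is smaller than its SE.

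**Figure D2:**
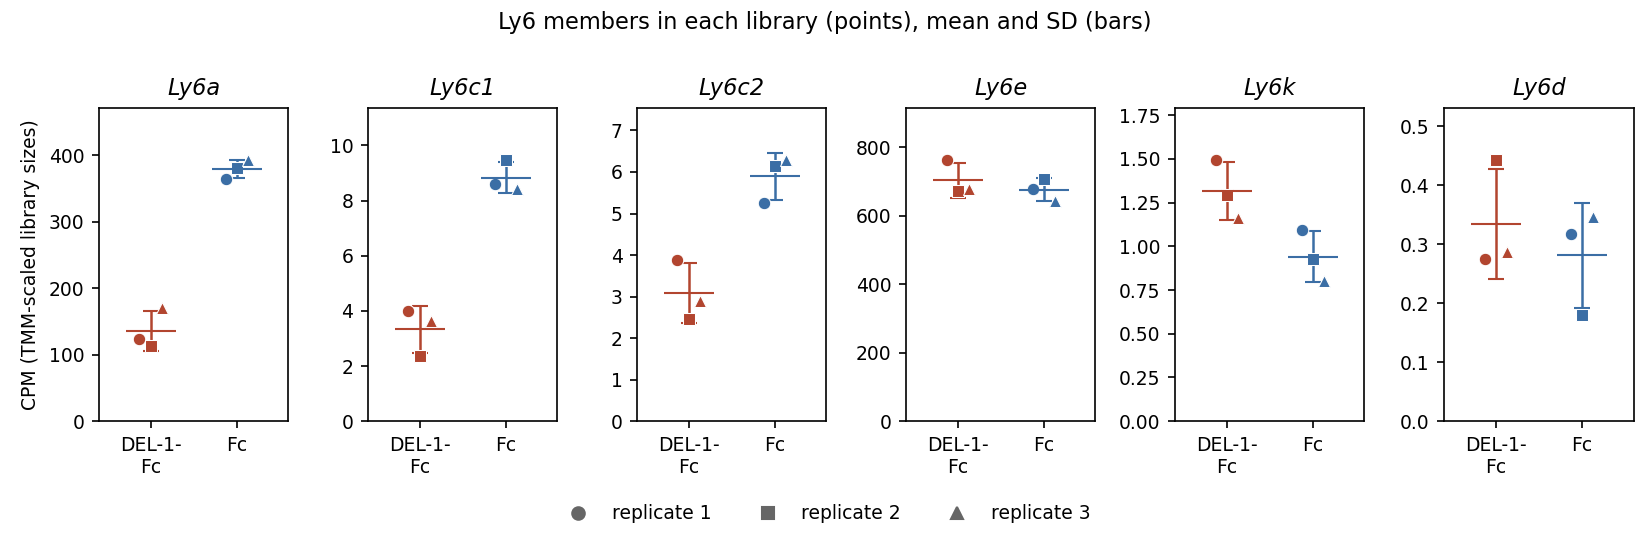
CPM of each member (vertical axis, starting at 0, on its own scale per panel) in the 3 DEL-1-Fc libraries and the 3 Fc libraries; points are libraries, with a shape per replicate number, and bars are the mean and SD. Ly6a, Ly6c1 and Ly6c2 lie lower in every DEL-1-Fc library, Ly6e and Ly6d overlap, and Ly6k lies slightly higher with DEL-1-Fc.

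The balance within the cluster differed between the groups. The 6 members together had 895.3, 791.2 and 854.9 CPM in DEL-1-Fc libraries, against 1059, 1106 and 1052 CPM in Fc libraries. Ly6e made up 83.1% ± 3.35 of that sum in DEL-1-Fc and 63.1% ± 1.69 in Fc libraries, while Ly6a made up 16.0% ± 3.37 in DEL-1-Fc and 35.4% ± 1.67 in Fc libraries (SD, n = 3 each). The ratio of Ly6a to Ly6e CPM was 0.162, 0.168 and 0.251 in DEL-1-Fc libraries, against 0.538, 0.538 and 0.611 in Fc libraries. Every DEL-1-Fc ratio is thus below every Fc ratio. This ratio is taken within a library and does not depend on the scaling between libraries.

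To compare levels between members, CPM was divided by the length of the longest protein-coding transcript in kb. On this scale Ly6a stood at 141.7 ± 31.6 CPM per kb in DEL-1-Fc and 397.5 ± 14.8 CPM per kb in Fc libraries, and Ly6e at 308.5 ± 22.2 CPM per kb in DEL-1-Fc and 296.5 ± 14.2 CPM per kb in Fc libraries (SD, n = 3 each). The order of these 2 was therefore turned round: Ly6e exceeded Ly6a in DEL-1-Fc libraries, and Ly6a exceeded Ly6e in Fc libraries, by more than the spread between libraries in both cases. This order rests on the longest protein-coding Ly6e transcript, of 2281 bases, while 16 Ly6e transcripts are annotated. Use of a shorter form would raise the Ly6e values, and a short enough form would undo the order seen in Fc libraries. Far below came Ly6c1, with 3.95 ± 1.01 CPM per kb in DEL-1-Fc and 10.5 ± 0.661 in Fc libraries, and Ly6c2, with 3.74 ± 0.878 in DEL-1-Fc and 7.17 ± 0.684 in Fc libraries. These 2 levels did not differ beyond their spread in DEL-1-Fc libraries. Ly6k had 1.66 ± 0.210 CPM per kb in DEL-1-Fc and 1.19 ± 0.184 in Fc libraries. Ly6d was last, with 0.449 ± 0.126 CPM per kb in DEL-1-Fc and 0.378 ± 0.120 in Fc libraries.

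Since Ly6a marks stem cells, Ly6c1 and Ly6c2 monocytes, and Ly6d B-lineage cells, the markers of such cells are given beside these values. The 9 monocyte and macrophage markers summed to 4.57 to 4.88 CPM with DEL-1-Fc and 4.83 to 5.30 CPM with Fc. The 10 neutrophil markers summed to 1.48 to 2.13 CPM with DEL-1-Fc and 0.564 to 1.15 CPM with Fc, with 5 of them (S100a8, Elane, Retnlg, Mmp8 and Cxcr2) at 0 in every library. The 6 dendritic cell markers summed to 6.51 to 7.06 CPM with DEL-1-Fc and 8.91 to 9.02 CPM with Fc, with Clec9a and Siglech at 0. Most of each of these 3 sums came from 1 gene. Cd68 gave 4.27 ± 0.110 CPM with DEL-1-Fc and 4.59 ± 0.145 CPM with Fc and did not pass the edgeR test (adjusted p 0.572), while Csf1r had at most 4 counts, Lyz2 at most 6 and Adgre1 at most 8 in any library. Zbtb46 gave 6.52 ± 0.210 CPM with DEL-1-Fc and 8.71 ± 0.160 CPM with Fc and fell by 0.42 (SE 0.0923, edgeR adjusted p 0.0193), and Ltf gave 1.70 ± 0.292 CPM with DEL-1-Fc and 0.757 ± 0.262 CPM with Fc and rose by 1.15 (SE 0.271, edgeR adjusted p 0.0251). The Zbtb46 call was lost without DEL-1-Fc replicate 3 or any 1 of the Fc libraries (adjusted p 0.0695 to 0.0981), and the Ltf call without Fc replicate 1 or 2 (0.0589 and 0.0648), with the replicate block (0.0673) and at thinned depth (0.126). The part of these markers in the Ly6c1 and Ly6c2 values was not tested. The 4 stem and progenitor markers summed to 2.95 to 3.35 CPM with DEL-1-Fc and 2.29 to 2.57 CPM with Fc, most of it from Kit, with Cd34 at 0 in every library. The summed level of 7 B cell markers overlapped between groups, at 6.73 to 8.07 CPM with DEL-1-Fc and 6.51 to 8.21 CPM with Fc, but its genes did not all do so. Ebf1, an early B-lineage factor, had 0.430 ± 0.00754 CPM with DEL-1-Fc and 1.14 ± 0.144 CPM with Fc and fell by 1.40 (SE 0.199, edgeR adjusted p 0.00232). Cd79b, a B cell receptor subunit, had 1.27 ± 0.285 CPM with DEL-1-Fc and 0.757 ± 0.181 CPM with Fc, without overlap, and did not pass the test (0.73, SE 0.249, edgeR adjusted p 0.0921). The remaining 5 overlapped, and the part of these genes in the Ly6d values was not tested. These marker genes and Cd8a, like Foxp3 and Ctla4, are named outside the rule after their values were seen. The 5 NK cell markers reached at most 0.164 CPM, the 5 endothelial markers 0.196 CPM and the 3 red cell markers 0.183 CPM in any library, and the CD8 pair summed to 11.9 to 12.8 CPM with DEL-1-Fc and 10.1 to 10.4 CPM with Fc. Of that pair Cd8a rose by 0.78 (SE 0.135, edgeR adjusted p 0.00607) and Cd8b1 was not called.

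The remaining Ly6 and uPAR family genes of the chromosome 15 cluster were nearly silent. Of 15 symbols, 14 had an entry and 2, Ly6i and Lynx1, passed the filter; neither was called by edgeR, DESeq2 or limma-voom, and 1, Ly6i, had an unadjusted p under 0.05. Ly6i, a close relative of Ly6a, had 29, 75 and 78 counts in DEL-1-Fc libraries, against 109, 107 and 99 counts in Fc libraries. In CPM it had 0.884, 1.33 and 1.32 with DEL-1-Fc, against 1.92, 1.75 and 1.80 with Fc. The DEL-1-Fc values lie below the Fc values, the log2 fold change was -0.61 (SE 0.186), and the edgeR adjusted p was 0.0643, which misses the threshold. Other genes held 19.7% of its 31-base words. Lynx1, a modulator of nicotinic receptors in the brain, had a log2 fold change of 0.03 (SE 0.212, edgeR adjusted p 0.957). Its value was -0.03, -0.05 and -0.14 when DEL-1-Fc replicate 1, DEL-1-Fc replicate 2 or Fc replicate 3 was left out.

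Other genes of the cluster were at the edge of detection. Ly6m, listed under the symbol 2010109I03Rik, had 4, 6 and 4 counts in DEL-1-Fc libraries, against 10, 9 and 10 counts in Fc libraries. Psca, first known from prostate, had 1, 0 and 2 counts in DEL-1-Fc libraries, against 2, 7 and 9 counts in Fc libraries. Ly6g, the neutrophil antigen, had 0, 0 and 2 counts in DEL-1-Fc libraries, against 1, 1 and 1 counts in Fc libraries. Ly6h, Ly6f and Slurp1 had at most 1 count in any library, and Gml, Gml2, Gpihbp1, Lypd2, Slurp2 and Ly6l had 0 in all. The floor of 3 counts is 0.0506 to 0.0914 CPM with DEL-1-Fc and 0.0490 to 0.0546 CPM with Fc, for counting error only.

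Within 500000 bases on either side of the members, 27 further genes had an entry, 22 of them protein-coding. Of these, 5 passed the filter (Arc, Jrk, Them6, Lynx1 and Ly6i), named here after their values were seen. None was called by edgeR, DESeq2 or limma-voom, against 12.6% of all genes tested, and 1, again Ly6i, had an unadjusted p under 0.05. With DEL-1-Fc replicate 1 left out, Arc (-0.25, SE 0.0669, edgeR adjusted p 0.0248) and Them6 (-0.40, SE 0.0656, edgeR adjusted p 0.00228) were called lower. The 3 members with lower values, together with Ly6i, lie next to one another at one end of the span, and Ly6e, Ly6k and Ly6d lie on the other side of them.

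**Figure D3:**
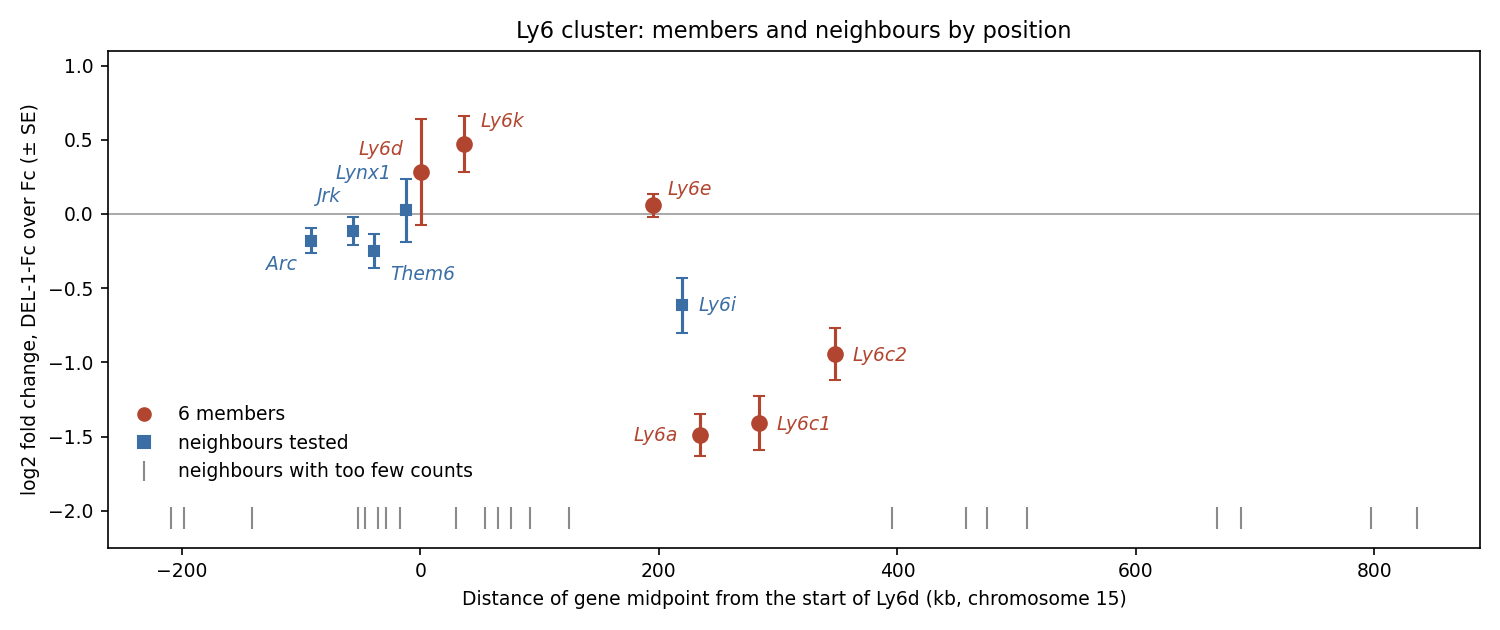
Log2 fold change of DEL-1-Fc over Fc (vertical axis, bars are SE) against the distance of each gene's midpoint from the start of Ly6d in kb; circles are members, squares are neighbours that passed the filter and ticks at the base are neighbours with too few counts. Ly6a, Ly6c1 and Ly6c2 lie between -1.49 and -0.95, with Ly6i at -0.61 beside them. Ly6e at 0.06 and Lynx1 at 0.03 lie near 0, and Ly6k and Ly6d lie above 0. Them6 at -0.25, Arc at -0.18 and Jrk at -0.12 lie below 0.

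Ly6-type proteins are also encoded elsewhere in the genome. Of 20 such genes on other chromosomes, 4 passed the filter, with a median log2 fold change of -0.22 beside 0.01 for all genes tested. Of these, 1 was called higher and 1 lower, beside 6.4% and 6.22% of all genes. Plaur, which encodes the GPI-anchored urokinase receptor, had 73.9, 63.6 and 77.9 CPM in DEL-1-Fc libraries, against 199.4, 196.1 and 190.4 CPM in Fc libraries. Its groups are as far apart as those of Ly6a, and it shared 0.3% of its words with other genes. It fell by 1.44 on the log2 scale (SE 0.0808, edgeR adjusted p 4.4e-05), which held in all 16 alternatives run. Lypd6b rose by 0.44 (SE 0.119, edgeR adjusted p 0.0426), with 5.85, 7.18 and 6.85 CPM in DEL-1-Fc libraries, against 5.23, 4.68 and 4.74 CPM in Fc libraries. That call was lost on leaving out any library other than DEL-1-Fc replicate 1, with adjusted p-values of 0.0993 to 0.165, and under 3 other alternatives. Ly6g5b (0.29, SE 0.152) and Spaca4 (-0.72, SE 0.366) did not pass the edgeR test, with adjusted p-values of 0.259 and 0.243.

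Because several Ly6 genes are known to be interferon-inducible, interferon genes were laid beside them. Of 37 interferon-stimulated antiviral genes, all were tested, and 24 were called lower and 1 higher with DEL-1-Fc, beside 6.22% and 6.4% of all genes. Their median log2 fold change was -0.56, beside 0.01 for all genes, and the count called lower ranged over 16 to 24 on leaving out 1 library.

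Among the 6 genes of this list with the smallest p, all fell. Oas3, a sensor-linked synthetase of antiviral oligoadenylates, had 73.7 ± 6.87 CPM with DEL-1-Fc and 184.3 ± 16.1 CPM with Fc (log2 fold change -1.32, SE 0.0896). Usp18, which removes the ubiquitin-like protein ISG15, had 26.3 ± 3.12 CPM with DEL-1-Fc and 82.6 ± 12.1 CPM with Fc (-1.65, SE 0.125). Ifi44 changed by -1.51 (SE 0.115), Mx2, a dynamin-like antiviral GTPase, by -1.75 (SE 0.164), Rsad2, the antiviral enzyme viperin, by -1.96 (SE 0.171), and Oasl1 by -1.87 (SE 0.179). The edgeR adjusted p of these 6 lay between 7.26e-05 and 0.000355. Ifitm3, a membrane protein that blocks virus entry, was the 1 gene called higher, with a log2 fold change of 0.68 (SE 0.0962, edgeR adjusted p 0.00219), and is named outside the rule after its value was seen. Ly6e, an interferon-inducible gene itself, is described beside the list by its centred log2 level, which was 0.15, -0.04 and -0.03 in DEL-1-Fc libraries, against -0.02, 0.04 and -0.10 in Fc libraries.

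**Figure D4:**
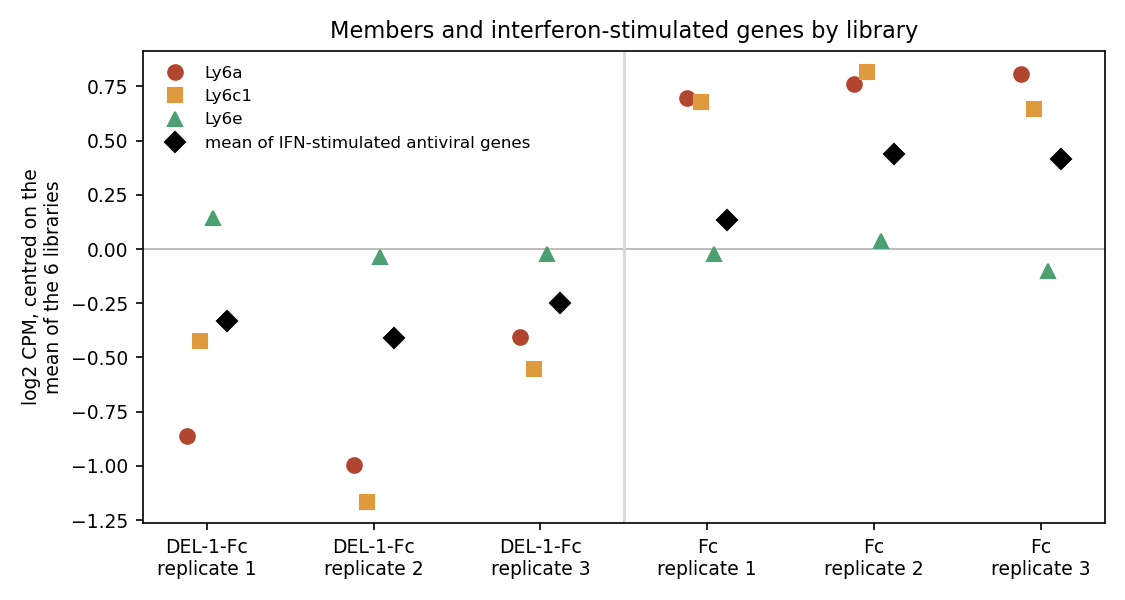
Log2 CPM (prior count 2) of Ly6a, Ly6c1 and Ly6e and the mean over 37 interferon-stimulated antiviral genes, each centred on its mean over the 6 libraries (vertical axis), by library. Ly6a, Ly6c1 and the list mean are below 0 in all 3 DEL-1-Fc libraries and above 0 in all 3 Fc libraries, while Ly6e stays between -0.10 and 0.15.

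The genes that respond mainly to interferon-gamma did not move one way. Of 25 tested, 4 were called higher and 6 lower with DEL-1-Fc, beside 6.4% and 6.22% of all genes. The median log2 fold change was -0.10, beside 0.01 for all genes. Gbp2, Gbp3 and Gbp7, which encode guanylate-binding proteins of cell-autonomous defence, rose by 0.72 (SE 0.0744), 0.59 (SE 0.0793) and 0.65 (SE 0.102), with edgeR adjusted p-values of 0.000479, 0.00172 and 0.00371. The chemokine genes Cxcl10 and Cxcl9 fell by 1.49 (SE 0.165) and 1.83 (SE 0.350), with edgeR adjusted p-values of 0.000651 and 0.00992; Cxcl9 had 3, 7 and 15 counts in DEL-1-Fc libraries, against 33, 40 and 30 counts in Fc libraries. Tapbp, the peptide-loading factor tapasin, fell by 0.36 (SE 0.0693, edgeR adjusted p 0.0105), a call lost without Fc replicate 2 or 3 (0.0648 and 0.0668). Without Fc replicate 1, 2 or 3, genes of this list called lower numbered 3, 2 and 2.

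Of the 15 interferon ligands, receptors and signal transducers tested, 2 were called higher and 4 lower, beside 6.4% and 6.22% of all genes. Their median log2 fold change was -0.04, beside 0.01 for all genes. Ifng, the interferon-gamma gene, had 10.4, 9.68 and 13.9 CPM in DEL-1-Fc libraries, against 36.1, 31.1 and 28.6 CPM in Fc libraries, so the groups are far apart. It fell by 1.49 on the log2 scale (SE 0.147, edgeR adjusted p 0.000418). Stat2, a transducer of type I interferon signals, fell by 0.62 (SE 0.0771, edgeR adjusted p 0.00120), and the phosphatase gene Ptpn6 and the kinase gene Tyk2 fell by 0.26 (SE 0.0591, 0.0203) and 0.23 (SE 0.0627, 0.0463), with the adjusted p after each SE. The receptor gene Ifngr1 rose by 0.72 (SE 0.0688, edgeR adjusted p 0.000355), and the feedback inhibitor Socs3 by 0.39 (SE 0.0840, edgeR adjusted p 0.0169). Without Fc replicate 1, 2 or 3 the calls in this list were 2 lower each, and without Fc replicate 1 or 3 they were 1 higher each. The Tyk2 call was lost in 8 of 16 alternatives, that of Ptpn6 on leaving out any 1 of the Fc libraries (adjusted p 0.0882 to 0.115), and that of Socs3 on leaving out Fc replicate 1 (0.0967) or 3 (0.0737).

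Most Ly6 proteins need a GPI anchor to stay on the cell. Of 31 genes for anchor synthesis, attachment and remodelling, 3 were called higher and none lower by edgeR, beside 6.4% and 6.22% of all genes. The median log2 fold change was -0.01, beside 0.01 for all genes. At an unadjusted p under 0.05 there were 5 higher and 4 lower, DESeq2 called 3 higher and 1 lower, and limma-voom 2 higher and none lower. Pigz, a mannosyltransferase that adds a side mannose to the anchor, had 1.28, 1.29 and 1.15 CPM in DEL-1-Fc libraries, against 0.247, 0.131 and 0.182 CPM in Fc libraries. It rose by 2.72 on the log2 scale (SE 0.257, edgeR adjusted p 0.000324), with 42, 73 and 68 counts in DEL-1-Fc and 14, 8 and 10 counts in Fc libraries, and it overlaps Gm49731 on the plus strand. Pgap1, an anchor remodelling enzyme, and Dpm3, a subunit of the mannose donor synthase, each rose by 0.47 (SE 0.125 and 0.128, edgeR adjusted p 0.0418 and 0.0441). Both calls were lost in 7 of 16 alternatives each, and leaving out DEL-1-Fc replicate 3 or Fc replicate 1, 2 or 3 left 1 gene called higher. Pign (-0.30, SE 0.0890), Pigb (-0.23, SE 0.0834) and Pigx (0.22, SE 0.0817) did not pass the edgeR test.

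Other GPI-anchored proteins of lymphocytes moved in both directions. Of 16 tested, 7 were called higher and 3 lower, beside 6.4% and 6.22% of all genes. The median log2 fold change was 0.32, beside 0.01 for all genes. Prnp, the prion protein gene, had 113.9 ± 9.24 CPM with DEL-1-Fc and 48.7 ± 3.10 CPM with Fc and rose by 1.22 (SE 0.0797, edgeR adjusted p 7.26e-05). Nt5e, which encodes the ecto-enzyme CD73 that makes adenosine, had 83.9 ± 7.60 CPM with DEL-1-Fc and 40.4 ± 1.83 CPM with Fc and rose by 1.06 (SE 0.0794, edgeR adjusted p 0.000109). Cd160 rose by 0.82 (SE 0.0871), Art2b, an ADP-ribosyltransferase of T cells, by 1.54 (SE 0.188) and Cd24a, the heat-stable antigen, by 0.63 (SE 0.0896), with edgeR adjusted p-values of 0.000514, 0.00107 and 0.00229. Plaur, which had the smallest p of this list and is given above, is a Ly6-type protein itself. The count called lower was 3 in each of 16 alternatives; the other 2 of them, Bst2 (tetherin) and H2-Q7, fell by 1.03 (SE 0.139) and 0.39 (SE 0.0702), with edgeR adjusted p-values of 0.00260 and 0.00721, and are named outside the rule after their values were seen.

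The list of naive and memory T cell genes held 7 genes called higher and 5 lower of 20 tested, beside 6.4% and 6.22% of all genes. The median log2 fold change was 0.21, beside 0.01 for all genes. Tbx21, the T-bet factor of type 1 responses, had 71.7 ± 0.690 CPM with DEL-1-Fc and 162.1 ± 10.4 CPM with Fc and fell by 1.18 (SE 0.0642, edgeR adjusted p 4.4e-05). Eomes, its relative in memory and cytotoxic cells, fell by 0.93 (SE 0.0741), and the activation marker Cd44 fell by 0.80 (SE 0.0612), with edgeR adjusted p-values of 0.00014 and 0.000114. Satb1, a chromatin organiser of thymic development, fell by 0.43 (SE 0.0649, edgeR adjusted p 0.00308). The chemokine receptor gene Cxcr3 rose by 0.85 (SE 0.105) and Bcl6 by 0.89 (SE 0.131), with edgeR adjusted p-values of 0.00117 and 0.00279. Without Fc replicate 1, 2 or 3, genes of this list called higher numbered 4, 4 and 3.

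**Figure D5:**
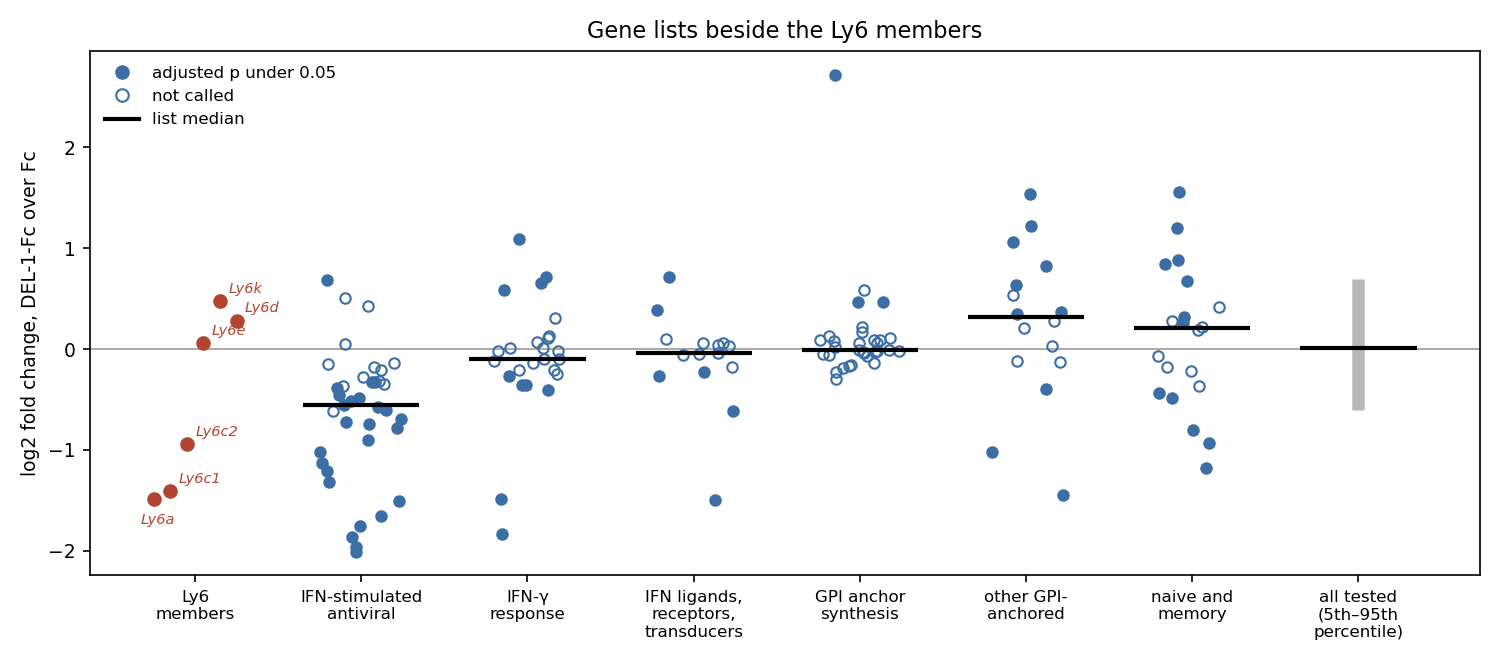
Log2 fold change of DEL-1-Fc over Fc (vertical axis) for the 6 members and for each tested gene of 6 lists; filled circles have an edgeR adjusted p under 0.05, open circles do not, black lines are list medians and the grey bar spans the 5th to 95th percentile of all genes tested. The antiviral list has a median of -0.56, the other lists lie between -0.10 and 0.32, and Ly6a, Ly6c1 and Ly6c2 lie below the grey bar, which ends at -0.60.

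The genes whose pattern over the 6 libraries came closest to a member were sought among 9198 protein-coding genes with a mean of at least 5 CPM, by the root mean square difference of centred log2 CPM. Nearest to Ly6a were Mpeg1, a pore-forming protein gene, at 0.112, Ifi44 at 0.122 and Plaur at 0.13. Mpeg1 had 32.0 ± 7.20 CPM with DEL-1-Fc and 92.2 ± 7.04 CPM with Fc, a log2 fold change of -1.52, close in size to that of Ly6a. Nearest to Ly6c1 were Plaur at 0.161, Isg15 at 0.167 and Tg at 0.181, of which Tg overlaps Sla and Gm17140 on the minus strand. Nearest to Ly6e were Gpr18 at 0.0225, Lysmd4 at 0.0241 and Zc3h10 at 0.0261, with log2 fold changes of 0.03, 0.07 and 0.09. Ly6c2, Ly6k and Ly6d were below 5 CPM and were not compared. These distances describe 6 libraries only and say nothing of shared control.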

How the data were processed

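PolyA RNA-seq libraries of in vitro differentiated mouse Tregs, 3 with DEL-1-Fc and 3 with Fc, were made by BGI from Trizol RNA treated with DNase, per the labels' protocols. For each library the authors deposited a file of raw read counts over 39179 genes, with no summary lines. STAR, HTSeq 0.6.0 and GRCm38 (mm10) are named in the submitters' processing notes. Annotation release, strand setting, read length and the handling of multi-mapping reads: not given in the sources used here.

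Identifiers were matched to GENCODE M21 (37607 of 39179), which also gave coordinates, transcripts and coding sequences; promoters came from RefSeq (GRCm38.p6). Shared sequence was measured as 31-base words of 1 transcript per gene, the longest protein-coding one, found on the same strand in any other gene. Coding sequences were aligned globally with Biopython. The deposited counts went into edgeR 4.0.16 (R 4.3.3): filterByExpr (minimum count 10, minimum total 15), TMM scaling and a robust quasi-likelihood fit. The p-values of the 14928 genes that passed were adjusted by Benjamini-Hochberg, with calls under 0.05. Fold changes set DEL-1-Fc over Fc, their SE is the log2 fold change over the square root of the test's F, and no replicate block was used. Alternatives were DESeq2 1.42.0, limma-voom (limma 3.58.1), other scalings and filters, thinning to 33364166 counts, the replicate number as a block, leaving out each library, and Ly6c1 and Ly6c2 summed. The scripts were tested on simulated data.

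The members and the gene lists were chosen with earlier results of these data known. Named genes are the members, every other chromosome 15 Ly6 or uPAR gene with a count, up to 6 genes per list with the smallest p, the 3 genes most like each member with at least 5 CPM, and called neighbours. Of 246 list and marker symbols, 2 had no match. Replicates of a group differed beyond counting noise (chi-square per degree of freedom 19.9 to 68.1), so no file repeats another.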

Additional observations from a re-analysis of the deposited data

How the results depend on the processing

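Ly6a, Ly6c1 and Ly6c2 kept their direction under every alternative, with log2 fold changes of -1.68 to -1.37 for Ly6a, -1.55 to -1.20 for Ly6c1 and -1.20 to -0.81 for Ly6c2, where -1.20 (SE 0.162) is the fit with both copies summed. Ly6e ranged over -0.0035 to 0.09, Ly6k over 0.30 to 0.59 and Ly6d over 0.01 to 0.67. The log2 ratio of Ly6c1 to Ly6c2 differed by -0.59 to -0.40. Ly6k, Ly6d, Ly6i and Lynx1 failed a filter of 5 CPM. DESeq2 called 2 antiviral genes higher and 1 GPI anchor synthesis gene lower. With no low-count filter, with no robust dispersion, or with the replicate block, 0 Ly6 genes on other chromosomes were called higher; with no robust dispersion or the block, 1 anchor synthesis gene was. The block lowered all calls to 1510, against 1884 without it, and ended the calls of Lypd6b, Tyk2, Pgap1, Dpm3 and Ltf. Same-numbered libraries did not deviate together (r 0.0163, 0.0885 and 0.0425), and not every library correlated best with its own number. Leaving out 1 library gave 901 to 3003 calls; antiviral genes called lower 16 to 24; interferon-gamma response genes 3 to 6 higher and 2 to 9 lower; ligands, receptors and transducers 1 to 3 higher and 2 to 4 lower; anchor synthesis genes 1 to 3 higher and 0 to 1 lower; other GPI-anchored genes 5 to 8 higher; naive and memory genes 3 to 9 higher; Ly6 genes on other chromosomes 0 to 1 higher. Signs turned for Lynx1 (-0.14 to 0.155 over the libraries left out) and Gpr18 (-0.0167 to 0.0539), neither called. Over 61 genes named outside the members, 900 single alternatives kept direction and call, 53 lost the call, 4 gained it and 5 changed sign; the cause was not tested. Members under 2 CPM are limited by counting error.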
